A study of Rattus norvegicus with 16 samples.

Results

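Perm1 and Ppargc1a are regulators of oxidative metabolism in muscle, and their transcript levels were followed in the rat plantaris muscle over 28 days of overload. They are 2 of the 14557 genes tested, each matched by its symbol to 1 transcript cluster of the array (17805170 for Perm1 and 17690210 for Ppargc1a). They were singled out because of how their levels moved across the days in these same arrays. Their levels and day-to-day differences are therefore given as a description, with no test.

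The arrays held plantaris muscle of Sprague Dawley rats labelled as retired breeders, with 4 arrays of control muscle that carried no overload (day 0) and 4 each taken 3, 7 and 28 days after the Achilles tendon had been cut out on both sides. That surgery ablates the gastrocnemius and soleus and leaves the plantaris to carry the load. The sample titles date every group, day 0 included, as post surgery. No sham surgery was analysed here, so load and surgery cannot be told apart. Replicates carry a number in the labels and nothing that ties each to its own animal. The p-values therefore reflect the scatter among these arrays alone, and part of it may be technical.

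Ppargc1a encodes the coactivator known as PGC-1 alpha, which binds no DNA itself but is recruited by nuclear receptors and other transcription factors, among them the estrogen-related receptors (ERR), to switch on genes of mitochondria and of fuel use. Its transcription in muscle rises with endurance exercise, through cAMP, calcium and AMP-activated kinase signals. Perm1 encodes a protein made mainly in skeletal muscle and heart; in mouse muscle it was found as a gene induced by PGC-1 alpha and ERR alpha, and it acts in turn on a subset of oxidative genes. A pool of Perm1 protein also sits on mitochondria.

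The sequences before both genes are shown because each window holds 1 match to an element tied to these pathways. They are the 250 bases upstream of the start that RefSeq gives in rat assembly GRCr8, 5′ to 3′ on the plus strand, at chr5:172081999-172082248 for Perm1 and chr14:63634058-63634307 for Ppargc1a. Capitals in the Perm1 window mark an inverted ERR core (AAGGTCA read on the other strand) and a GC box (GGGCGG), and capitals in the Ppargc1a window mark a cAMP response element (TGACGTCA).
Perm1: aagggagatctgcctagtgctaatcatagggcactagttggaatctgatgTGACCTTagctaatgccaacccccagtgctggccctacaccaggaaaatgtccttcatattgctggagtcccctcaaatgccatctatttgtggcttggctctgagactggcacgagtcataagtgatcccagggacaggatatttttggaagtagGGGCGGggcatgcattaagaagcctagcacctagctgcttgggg
Ppargc1a: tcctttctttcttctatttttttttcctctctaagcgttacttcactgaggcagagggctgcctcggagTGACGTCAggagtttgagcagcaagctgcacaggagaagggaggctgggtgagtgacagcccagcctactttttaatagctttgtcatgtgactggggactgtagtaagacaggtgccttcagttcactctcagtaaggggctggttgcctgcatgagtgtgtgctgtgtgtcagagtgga

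The ERR core lay 200 to 194 bases before the start of Perm1, and the GC box 44 to 39 bases before it. The cAMP response element lay 181 to 174 bases before the start of Ppargc1a, a gene for which RefSeq lists several transcripts, so that this is 1 of its starts. On both strands, 3.99% of 33469 promoter windows of this length held AAGGTCA, 30.5% held GGGCGG and 1.59% held TGACGTCA. No match to the longer ERR site TNAAGGTCA, to the consensus of nuclear respiratory factor 1, to TATAAA or to the MEF2 consensus was found in either window. E-boxes (CANNTG), which 65.5% of windows hold, were found once before Perm1 and in 2 places before Ppargc1a. Neither window held the element marked in the other. These matches are letters only, and binding was not measured.

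In control muscle both transcripts were among the brighter ones on the array. The log2 expression values (RMA scale) of Perm1 on the 4 day 0 arrays were 10.10, 10.22, 10.14 and 9.95, a mean of 10.1 ± 0.11 (SD, n = 4) that was above the level of 97.8% of tested genes. Those of Ppargc1a were 9.66, 9.73, 9.73 and 9.95, with a mean of 9.77 ± 0.12 (SD, n = 4), above 96.9% of genes. Levels of different probes are not comparable in absolute terms, so these percentiles only place each cluster in the range of the array.

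At day 3 both stood at their lowest mean. Perm1 was at 7.00, 6.74, 6.84 and 6.70, and Ppargc1a at 7.50, 7.41, 7.64 and 7.02. All 4 day 3 arrays of each gene lay below all 4 day 0 arrays, by a wide margin against the spread within either day. The log2 difference from day 0 was -3.28 ± 0.33 (SE from limma, n = 4 per group) for Perm1 and -2.37 ± 0.19 for Ppargc1a, which leaves 10.3% and 19.3% of the control level. These SEs pool the spread of all 4 days, and for Perm1 the SD was 1.03 at day 7 against 0.14 at day 3. With days 0 and 3 fitted alone the SE was 0.12 for Perm1 and 0.15 for Ppargc1a. Arrays lay wholly below day 0 in 18.6% of all tested genes, and nothing is read from the members' place among them, since this contrast served to choose them.

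**Figure D1:**
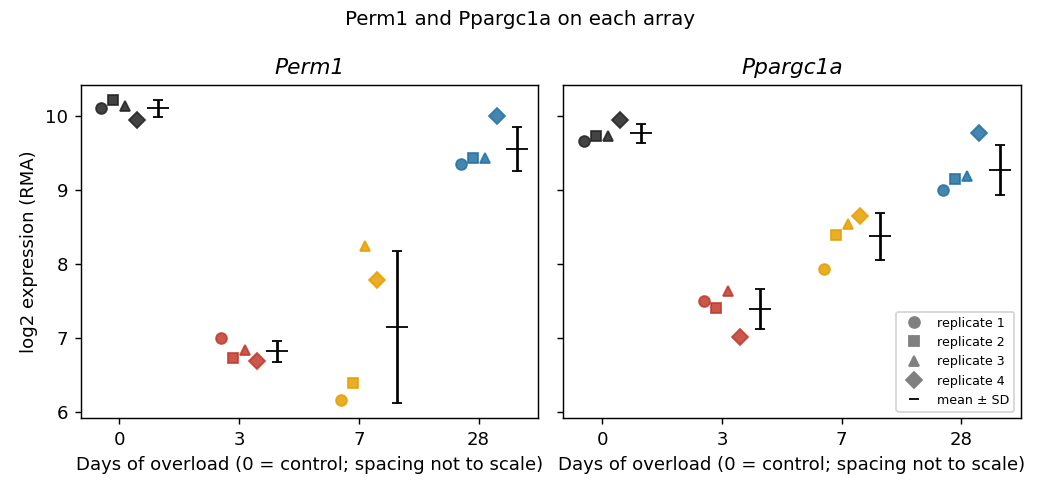
Log2 expression (RMA) of Perm1 (left) and Ppargc1a (right) on each of the 16 arrays by day of overload, with 1 marker shape per replicate and the mean ± SD (n = 4) beside each group. Both genes are low at day 3, Ppargc1a has partly come back at day 7 while the Perm1 arrays split from 6.16 to 8.25, and both are near control at day 28.

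At day 7 the arrays of Ppargc1a lay together above day 3 while those of Perm1 split, though the courses were not compared in a test. Ppargc1a was at 7.93, 8.39, 8.54 and 8.65, with all 4 arrays above those of day 3 and below those of day 0. Its level was 38.2% of control, with a log2 difference of -1.39 ± 0.19 from day 0 and of 0.99 ± 0.19 from day 3. Arrays lay wholly above day 3 in 7.2% of tested genes, and wholly below day 0 in 15.8%.

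Perm1 at day 7 did not have a common level. Replicates 1 and 2 stood at 6.16 and 6.40, under every day 3 array, and replicates 3 and 4 at 8.25 and 7.79, above every day 3 array. The range of 2.08 on the log2 scale compares with 0.27 at day 0, 0.31 at day 3 and 0.64 at day 28, and 71 of the 14557 genes had a larger range over the day 7 arrays. All 4 arrays nonetheless lay below day 0, with a log2 difference of -2.95 ± 0.33 and 12.9% of the control level. With days 0 and 7 fitted alone that SE was 0.41. The difference from day 3, at 0.33 ± 0.33, was no larger than its error. It became -0.04 without day 7 replicate 3 and 0.12 without replicate 4, and 0.66 and 0.58 without replicates 1 and 2.

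The markers of other cell types on those 4 arrays are given beside this split. The mean log2 level of 10 muscle fibre genes on day 7 replicates 1 to 4 was 12.63, 12.43, 12.57 and 12.58, and that of 10 macrophage genes was 6.97, 7.36, 6.83 and 6.98. Fibroblast genes (7) averaged 10.90, 10.43, 10.58 and 10.65, and endothelial genes (6) 5.85, 5.82, 6.04 and 6.11. Of these 4 lists, the endothelial one was lower in both low Perm1 arrays than in both high ones, by far less than the Perm1 gap. The red blood cell genes (3) averaged 6.46, 6.54, 5.85 and 6.20, higher in the low Perm1 arrays. The part of these cells in the split was not tested.

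At day 28 the means of both members were near control but still below it, and whether the return was complete was not tested. Perm1 stood at 9.35, 9.43, 9.43 and 9.99, and Ppargc1a at 9.01, 9.14, 9.19 and 9.77. In both genes replicates 1 to 3 lay below every day 0 array, and replicate 4 fell within the day 0 range. The level was 68.4% of control for Perm1 (log2 difference -0.55 ± 0.33) and 71.2% for Ppargc1a (-0.49 ± 0.19). With days 0 and 28 fitted alone the SEs were 0.16 and 0.17. Without day 28 replicate 4 the differences were -0.69 and -0.65. Most of the return of Perm1 fell between days 7 and 28, with a log2 difference of 2.40 ± 0.33, whereas Ppargc1a gained 0.90 ± 0.19 over the same interval. In both genes all day 28 arrays lay above all day 7 arrays, as they did in 11% of tested genes.

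The choice of members used their day means but not how arrays of the same day vary around them, so that variation was tested. After each gene's day means were removed, Perm1 and Ppargc1a varied together when the 16 arrays were pooled, with Pearson's r = 0.631 (exact permutation of arrays within days over 331776 arrangements, two-sided p = 0.0119, p = 0.0358 adjusted over 3 relations). This did not hold on each day. On day 0 replicates 1 to 4 the deviations had opposite signs, at 0.0015, 0.11, 0.04 and -0.15 for Perm1 and -0.10, -0.04, -0.04 and 0.18 for Ppargc1a. The largest deviations of both genes were at days 7 and 28. Spearman's rho was 0.647 (exact permutation p = 0.0194, adjusted p = 0.0583), so the adjusted value of the rank form misses 0.05. Without the 2 arrays farthest from the median of Perm1, day 7 replicates 1 and 3, r was 0.565 (exact permutation p = 0.0375). The relation no longer passed without day 28 replicate 4 (r = 0.607, exact permutation p = 0.0887) or without day 7 replicate 4 (r = 0.576, p = 0.053). Leaving out all 4 day 7 arrays, an alternative chosen after seeing the data, gave r = 0.724 (exact permutation p = 0.0749). The other 2 relations set each member's deviations against the array's median over tested genes, and gave r = -0.158 for Perm1 (exact permutation p = 0.489, rho = -0.294 with p = 0.283) and r = -0.458 for Ppargc1a (exact permutation p = 0.0971, rho = -0.35 with p = 0.221). Adjusted over the 3 relations, the Pearson p-values of these were 0.489 and 0.146, and both rank p-values 0.283. Without the 2 farthest arrays their r was -0.0518 and -0.403.

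Several marker lists varied beside the members on some of these arrays. The endothelial list averaged 7.23 on day 28 replicate 4 and 6.59, 6.34 and 6.68 on replicates 1 to 3. On day 0 it averaged 7.16 on replicate 4, where Ppargc1a was highest and Perm1 lowest, and 6.76, 6.90 and 6.64 on the others. On day 3 replicates 1 to 4 it averaged 5.33, 5.58, 5.84 and 5.71, with Ppargc1a highest on replicate 3 and lowest on replicate 4. Perm1 was highest on day 3 replicate 1, where the endothelial list was lowest. The fibre list on the same day 3 arrays averaged 12.34, 12.17, 12.33 and 12.08, in the order of Perm1. The macrophage list averaged 8.57, 9.02, 8.59 and 8.99. On day 28 replicate 4 the fibre list was the lowest of that day, at 12.65. Red blood cell genes stood highest on day 3 replicate 3 (7.87) and day 28 replicate 4 (7.20), but at day 7 were lower in the high Perm1 arrays. The part of these cells in the relation was not tested.

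**Figure D2:**
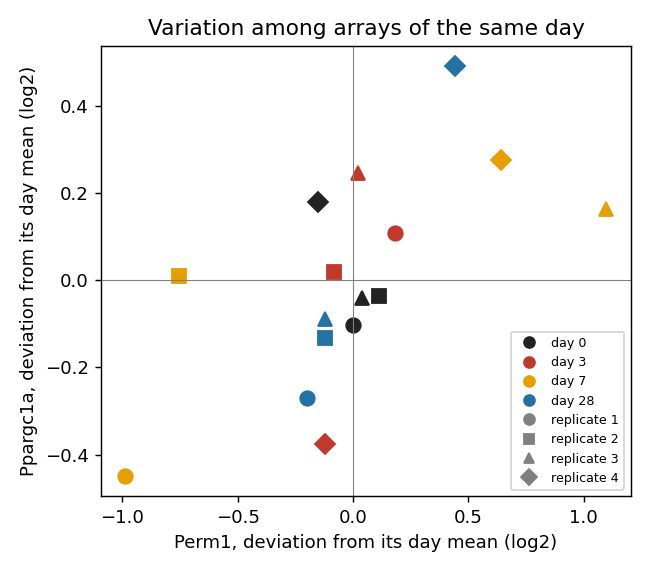
Deviation of Ppargc1a (vertical) from its own day mean against that of Perm1 (horizontal), both in log2 units, for 16 arrays coloured by day and shaped by replicate number. The day 7 arrays spread along the Perm1 axis, and day 28 replicate 4 lies high for both genes (r = 0.631 over all arrays). On day 0 the genes deviate in opposite directions.

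The level of the muscle fibres' own transcripts bears on a fall in a bulk sample, where fewer cells of a type and less RNA per cell cannot be told apart. The labelled tissue was borne out by its fibre markers: 10 of the 18 listed had a cluster, and these averaged between 12.69 and 12.74 on the day 0 arrays, near the top of the array's scale. The day 3 arrays averaged between 12.08 and 12.34, those of day 7 between 12.43 and 12.63, and those of day 28 between 12.65 and 12.71. At day 3 in limma (adjusted p under 0.05), 5 of the 10 fell and 0 rose, with a median of -0.36, while 19.6% of all tested genes fell and 21.7% rose. Set against the fibre genes by centring each array on their mean, the day 3 difference was -2.79 for Perm1 and -1.88 for Ppargc1a. Fibre probes lie near the top of the scale, where differences can be compressed, and by how much was not tested.

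Markers of macrophages, fibroblasts and red blood cells rose over the same arrays, and those of endothelium mostly fell. All 10 macrophage markers measured of 12 rose at day 3, when the list averaged 8.57 to 9.02 per array against 4.35 to 4.68 at day 0, and it was still at 5.43 to 5.88 at day 28. All 7 fibroblast markers measured of 8 rose at day 3, from 7.48 to 7.66 at day 0 to 10.3 to 10.8. Of the 6 endothelial markers measured of 8, 5 fell and 0 rose. The red blood cell markers (3 of 4 measured) all rose at day 3, of 5 adipocyte markers 1 rose and 3 fell, and of 4 cardiac markers, which averaged 2.64 to 3.06 at day 0, Tnni3 alone rose (0.74 ± 0.24), a call lost with centring on the median of tested genes (0.28) and without day 0 replicate 1 (0.67) or 3 (0.64) or day 3 replicate 2 (0.68). No marker list stood at 0 on any array. The part of the changing cell mixture in the members' falls was not tested beyond the centring on fibre genes.

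**Figure D3:**
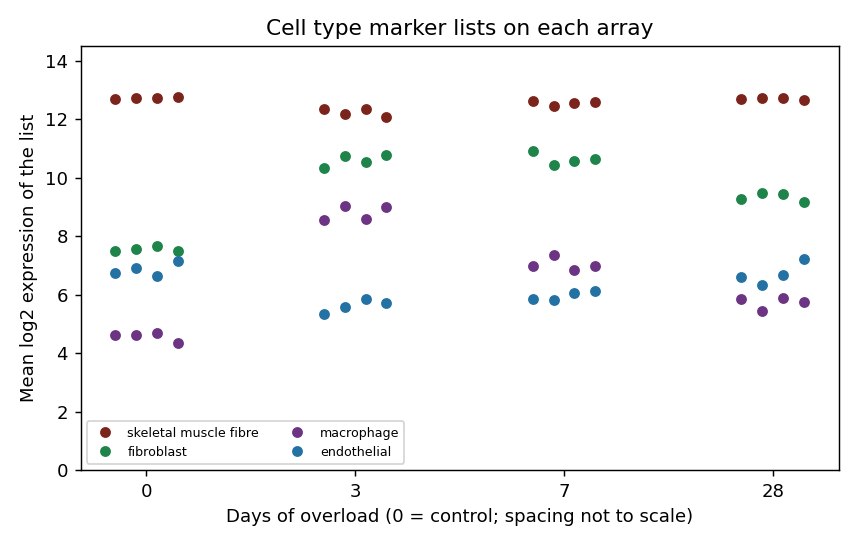
Mean log2 expression of 4 cell type marker lists (vertical) on each array by day (horizontal), 1 point per array. Fibre genes dip from about 12.7 to between 12.1 and 12.3 at day 3 while macrophage and fibroblast genes rise, and macrophage genes then decline towards day 28.

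Around the 2 members, 9 lists of genes by role in the pathway held 167 genes, of which 111 had a cluster of their own. At day 3 against day 0, 65 of the 111 fell (58.6%) and 6 rose (5.41%) in limma against the 19.6% and 21.7% of all tested genes. Their median log2 difference was -0.46, against -0.05 over all genes. The same 19.6% and 21.7% are the background for the day 3 counts of each list below. These lists were drawn up with earlier results of these data known, so the counts describe them and are no independent evidence of a direction. Centring arrays on the median of tested genes shifts the median gene by -0.46 at day 3 and leaves 3 pathway genes that rose there, in place of 6. Centring on fibre genes shifts every gene by 0.49 at day 3, about as much as the pathway median of -0.46 and with the opposite sign. Over all tested genes 7282 then rose and 1011 fell at day 3. How many pathway genes pass with that centring was not counted. Tests of days 3, 7 and 28 against day 0 share the day 0 arrays.

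Of the coactivators and corepressors, 10 of 18 were measured. Of these, 7 fell at day 3 and 0 rose (median -1.12). Ppargc1b, the close relative of Ppargc1a that also drives mitochondrial genes, went from 7.49 ± 0.08 (SD, n = 4) at day 0 to 5.61 ± 0.16 at day 3, 6.76 ± 0.58 at day 7 and 7.26 ± 0.19 at day 28. It fell at day 3 by 1.88 on the log2 scale (SE 0.21, limma adjusted p = 1e-06), and at day 28 its difference of -0.24 ± 0.21 did not pass. Nrip1, a corepressor that opposes PGC-1 alpha on the same receptors, fell too (-1.39 ± 0.13). It was still lower at day 28 (-0.75 ± 0.13, limma adjusted p = 0.00159). Lpin1, a phosphatidate phosphatase that also acts as a coactivator, changed by -1.52 ± 0.15, the steroid receptor coactivator Ncoa1 by -1.46 ± 0.15 and the acetyltransferase Crebbp by -1.28 ± 0.12. Pprc1, the remaining member of that family, did not pass at day 3 (0.29 ± 0.14, limma adjusted p = 0.123), but did with arrays centred on fibre genes (0.78).

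Among nuclear receptors and transcription factors, 11 of 16 measured of 27 fell at day 3 and 0 rose (median -0.68). The largest falls were in Nr4a1, an orphan receptor induced by activity (-2.37 ± 0.14, limma adjusted p = 8.18e-10), Epas1, the hypoxia factor HIF-2 alpha (-2.27 ± 0.19), Ppara, a receptor for fatty acids (-2.18 ± 0.21), and Rxrg, a partner of such receptors (-1.71 ± 0.19). Esrra, the gene of ERR alpha, was dimmer on the array, with 5.98 ± 0.31 at day 0 and 5.51 ± 0.20 at day 3. Its fall at day 3 was marginal (-0.46 ± 0.18, limma adjusted p = 0.0443). That call was lost when days 0 and 3 were fitted alone, with the replicate block, and without any single one of 9 arrays (day 0 replicates 1 to 3, day 3 replicates 1, 3 and 4, day 7 replicate 2 and day 28 replicates 3 and 4), at values from -0.50 to -0.37. It also changed sign, to 0.03, with arrays centred on fibre genes, as did the fall of Ppard, another fatty acid receptor (-0.42 ± 0.13 as deposited and 0.07 so centred). At day 7 Esrra was lower by 0.85 ± 0.18 (limma adjusted p = 0.00127), at 5.13 ± 0.31. Mef2c, a muscle transcription factor that binds the Ppargc1a gene, fell at day 3 (-0.95 ± 0.10) and had a difference of -0.15 ± 0.10 at day 7. Smyd1, a muscle methyltransferase upstream of Perm1 in mouse heart, changed by -1.41 ± 0.18 at day 3 and -0.43 ± 0.18 at day 7 (limma adjusted p = 0.0704). Gabpa, a factor for respiratory chain genes, was at 0.05 ± 0.13 at day 3 and did not pass, though it passed at -0.42 with arrays centred on the median of tested genes and at 0.54 with centring on fibre genes.

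Of the upstream signals, 9 of 16 measured of 35 fell at day 3 and 0 rose (median -0.58). Prkaa2, the catalytic subunit of AMP-activated kinase that prevails in muscle, went from 12.1 ± 0.04 at day 0 to 10.2 ± 0.20 at day 3, 11.1 ± 0.28 at day 7 and 11.5 ± 0.15 at day 28. Its differences from day 0 were -1.85 ± 0.14, -0.94 ± 0.14 and -0.60 ± 0.14, and each passed in limma (adjusted p = 1.31e-08, 6.4e-05 and 0.0124). Map2k6, a kinase that activates p38 (-1.20 ± 0.21), Ppp3cb, a catalytic subunit of calcineurin (-1.17 ± 0.13), and Prkaca, the catalytic subunit of the cAMP-dependent kinase (-1.09 ± 0.13), also fell at day 3.

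Of the genes that copy and transcribe mitochondrial DNA, 14 of 16 were measured. At day 3, 2 of them fell and 2 rose (median -0.14), shares near or below the 19.6% and 21.7% of all tested genes. Tfam, the main packaging and transcription factor of mitochondrial DNA and a textbook target of the PGC-1 alpha pathway, was at -0.17 ± 0.12 (limma adjusted p = 0.27), which passed at -0.63 with arrays centred on the median of tested genes and at 0.32 with centring on fibre genes. Primpol, a primase and polymerase of nucleus and mitochondria, rose by 2.17 ± 0.19, and Ssbp1, which coats single-stranded mitochondrial DNA, by 0.54 ± 0.13, a call lost on centring on all tested genes (0.08). Tfb2m, a mitochondrial transcription factor (-0.57 ± 0.14), and Mterf2 (-0.40 ± 0.13) fell, but neither passed with centring on fibre genes (-0.08 and 0.09). The Mterf2 call was also lost without day 0 replicate 1 or 2 or day 3 replicate 1 or 4, at -0.37 to -0.32.

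**Figure D4:**
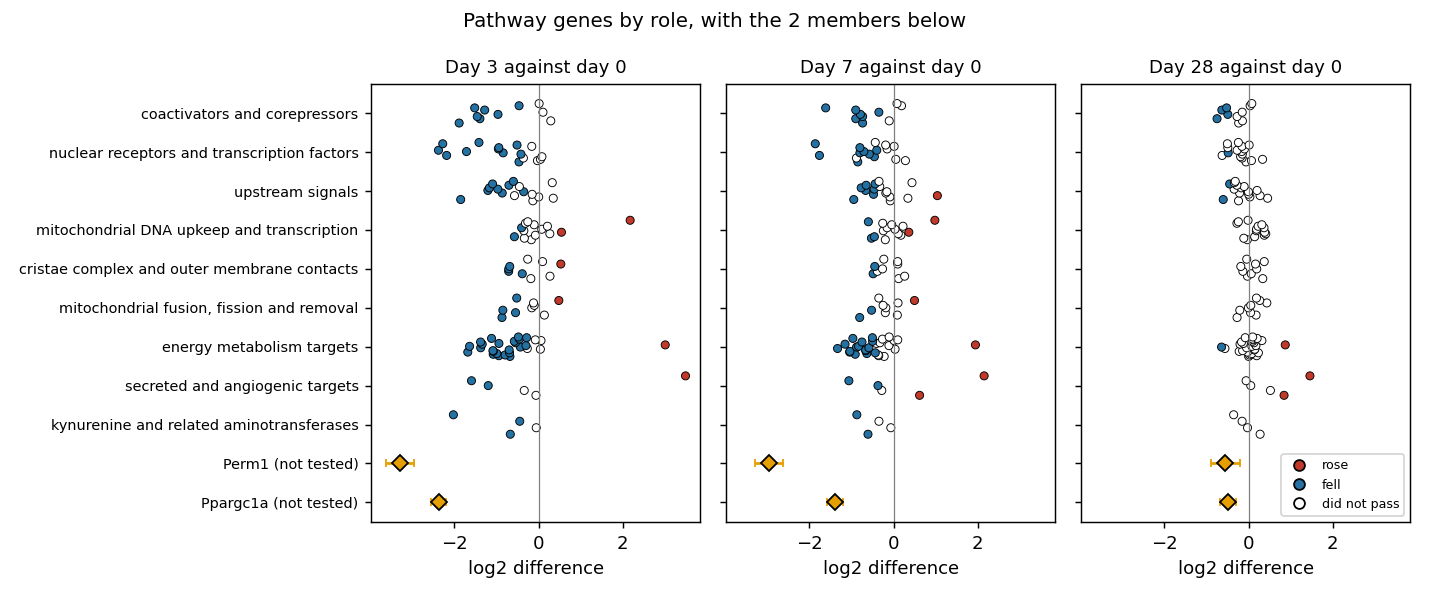
Log2 difference from day 0 (horizontal) at days 3, 7 and 28 for the measured genes of 9 pathway lists (rows, 1 point per gene), filled red or blue where limma's adjusted p was under 0.05 and white where it did not pass, with Perm1 and Ppargc1a (± SE, not tested) in the bottom rows. Most coactivator, receptor and energy genes lie left of 0 at day 3, and at day 28 most points are white and near 0.

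Perm1 protein is in contact with the cristae organising complex in mouse muscle. The list of that complex and its outer membrane contacts had 9 of 12 genes measured. At day 3, 4 of the 9 fell and 1 rose (median -0.26), where 19.6% of all tested genes fell. Samm50, of the outer membrane sorting machinery, changed by -0.68 ± 0.14, and the cristae subunits Apoo and Apool by -0.71 ± 0.18 and -0.71 ± 0.20. With arrays centred on fibre genes these 3 falls did not pass, at -0.19, -0.22 and -0.22. Mtx1, an outer membrane import protein, rose by 0.53 ± 0.13 from a low level, and not under centring on all tested genes (0.07).

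Of 9 fusion, fission and removal genes measured of 15, 4 fell at day 3 and 1 rose (median -0.16), where 19.6% of all tested genes fell and 21.7% rose. Opa1, which fuses inner membranes, changed by -0.87 ± 0.12, Mief1 and Mff, receptors of the fission machinery, by -0.85 ± 0.15 and -0.55 ± 0.12, and Fundc1, a receptor for mitochondrial removal, by -0.52 ± 0.16. With centring on fibre genes Mief1 (-0.36), Mff (-0.06) and Fundc1 (-0.03) did not pass.

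Of the energy metabolism genes known as targets of the pathway, 28 of 32 were measured. Of these, 23 fell at day 3 and 1 rose (median -0.69). Acsl1, which activates fatty acids (-1.68 ± 0.20), Ldhb, the lactate dehydrogenase chain of oxidative fibres (-1.64 ± 0.15), and Idh3a, of the citrate cycle (-1.38 ± 0.13), fell furthest. Ucp2, an uncoupling protein that immune cells also express, rose instead (3.01 ± 0.17), on the arrays where all 10 measured macrophage markers rose; the part of those cells was not tested. Of the 5 secreted and angiogenic targets measured of 7, 2 fell and 1 rose at day 3 (median -0.34), where 19.6% of all tested genes fell and 21.7% rose. Fndc5, the precursor of irisin, changed by -1.59 ± 0.17 and the growth factor Pdgfb by -1.19 ± 0.13, while Metrnl, a secreted protein of muscle and of macrophages, rose by 3.49 ± 0.18. Of the aminotransferases, 3 of 4 measured of 5 fell (median -0.56), namely Gpt2, of alanine metabolism (-2.02 ± 0.18), Kyat1, of kynurenine (-0.67 ± 0.19), and Got2 (-0.45 ± 0.15). With centring on fibre genes Kyat1 (-0.18) and Got2 (0.04) did not pass, and the Got2 call was also lost under cyclic loess (-0.36), without day 0 replicate 2 (-0.36) and without day 3 replicate 2 (-0.39).

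At day 7 against day 0, 50 of the 111 pathway genes fell and 7 rose (median -0.35), where 14.9% of all tested genes fell and 16.9% rose. Epas1 (-1.86 ± 0.19) and Ppara (-1.76 ± 0.21) were nearly as far below control as at day 3, and Lpin1 was at -1.61 ± 0.15 against -1.52 ± 0.15 at day 3. Ppargc1b (-0.73 ± 0.21), Ncoa1 (-0.73 ± 0.15) and Rxrg (-0.70 ± 0.19) were closer to control than at day 3. From day 3 to day 7 in limma, 26 pathway genes rose and 7 fell (median 0.17), with 6.02% of all genes rising and 9.23% falling. Ppargc1b rose by 1.15 ± 0.21 in that interval, Nr4a1 by 1.98 ± 0.14 and Prkaa2 by 0.90 ± 0.14.

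From day 7 to day 28, 33 pathway genes rose and 3 fell (median 0.29), where 8.24% of all genes rose and 9.38% fell. The energy metabolism list held 14 of those rises, among them Acsl1 (1.02 ± 0.20, limma adjusted p = 0.00205) and Ldhb (0.91 ± 0.15). Epas1 rose by 1.35 ± 0.19, Ppara by 1.13 ± 0.21, Lpin1 by 1.09 ± 0.15 and Esrra by 0.79 ± 0.18 in this interval, the one in which most of the return of Perm1 took place. Ppargc1b, at 0.50 ± 0.21, did not pass (limma adjusted p = 0.116).

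At day 28 against day 0, 8 of the 111 fell and 3 rose (median -0.01), where 2.8% of all genes fell and 6.29% rose. Those lower were the coactivators and corepressors Nrip1, Crebbp (-0.63 ± 0.12), Lpin1 (-0.52 ± 0.15) and Ncoa2, the receptor partner Rxra (-0.48 ± 0.12), the kinase subunits Prkaa2 and Prkaca (-0.45 ± 0.13) and the hexokinase Hk2 (-0.64 ± 0.15). Some of these calls turned on single arrays or on the fit. That of Lpin1 was lost without any 1 of 8 arrays (day 0 replicates 1 to 4, day 3 replicate 2 and day 28 replicates 2 to 4), at -0.57 to -0.47, with centring on fibre genes and with the replicate block. The Rxra call was lost without day 0 replicate 1 or 3 or day 28 replicate 1 or 3, at -0.48 to -0.41, and when days 0 and 28 were fitted alone. The Prkaca call was lost without day 0 replicate 1, 2 or 4 or any day 28 array, at -0.48 to -0.37, with centring on fibre genes and with the replicate block. The Ncoa2 call (-0.49 ± 0.13) was lost without day 0 replicate 3 or day 28 replicate 2, both at -0.45, or day 28 replicate 3, at -0.47. That of Hk2 was lost when the 2 groups were fitted alone. Metrnl (1.46 ± 0.18), Ucp2 (0.87 ± 0.17) and Vegfb, a growth factor that PGC-1 alpha can induce (0.84 ± 0.17), were higher. Of the 28 energy metabolism genes, 1 fell and 1 rose, with a median of 0.08, and Acsl1 stood at -0.03 ± 0.20 and Ldhb at 0.08 ± 0.15.

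The genes whose values ran closest to each member were picked by the root mean square gap over the 16 arrays, after each gene had been centred on its own mean. These are chosen for their likeness to the members, so their values are a description. Ppargc1a had close company. Alpk3, a kinase of striated muscle, kept a gap of 0.189 log2 units, with differences from day 0 of -2.19, -1.42 and -0.54 at days 3, 7 and 28 against -2.37, -1.39 and -0.49 for Ppargc1a. Epm2a, the glycogen phosphatase laforin (0.239), Jph2, a junctophilin that ties the surface membrane to the calcium store (0.247), Myom1, of the sarcomere's M-band (0.258), the zinc finger gene Zfp606 (0.258) and Nt5c1a, a nucleotidase that acts on AMP (0.262), followed.

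Perm1, whose large changes and day 7 scatter widen this unscaled gap, had no neighbour as near. Its closest was Fhl5, a LIM domain protein, at a gap of 0.54, then Slc16a3, the lactate exporter of glycolytic fibres (0.589), Epas1 (0.606), Pfkfb1, which sets the level of an activator of glycolysis (0.611), the tyrosine phosphatase Ptpn3 (0.621) and Podxl, a sialomucin of vessel lining (0.63). At day 3 the differences of these 6 ran from -1.79 for Slc16a3 to -2.80 for Fhl5, against -3.28 for Perm1. Since Perm1 was chosen by its course over the days, nothing is read from its greater depth. Slc16a3 was the one of the 6 whose day 7 arrays spread as widely as those of Perm1, at 6.33, 6.64, 8.54 and 8.17 for replicates 1 to 4, the same pair of arrays being low. Between the members themselves the gap was 0.745, which placed Ppargc1a at rank 24 for Perm1 and Perm1 at rank 1770 for Ppargc1a. No gene was among the 6 nearest of both. Of the 11 of these 12 genes with a promoter window in the RefSeq table, 0 held AAGGTCA, 0 held TGACGTCA and 4 held GGGCGG. Over all windows the shares were 3.99%, 1.59% and 30.5%, so with 11 genes nothing is read from these counts.

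**Figure D5:**
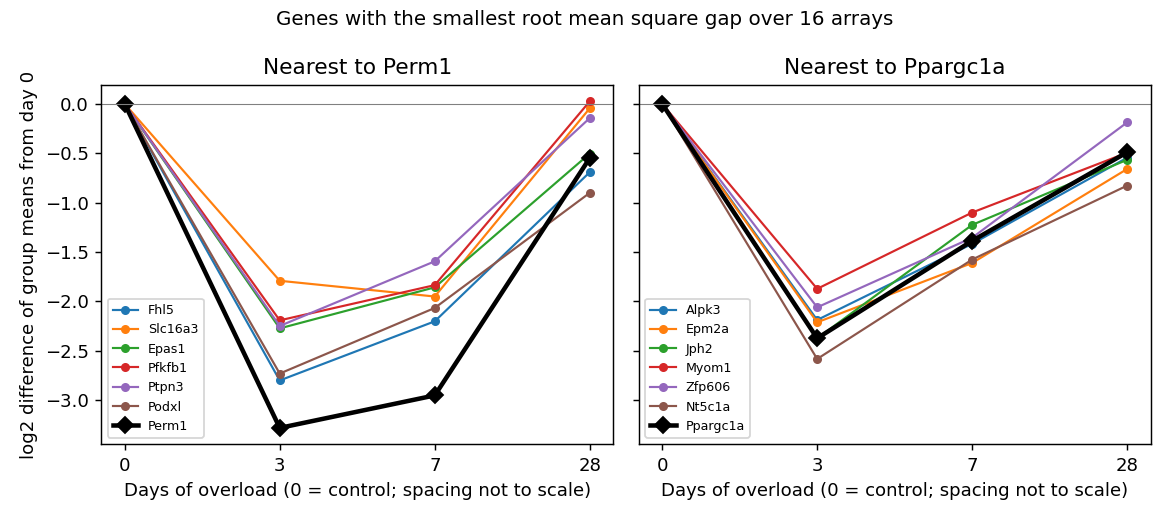
Log2 difference of the group mean from day 0 (vertical) by day (horizontal) for each member (thick black) and the 6 genes with the smallest root mean square gap to it over 16 arrays. Perm1, chosen by its course over the days, lies below all its neighbours at days 3 and 7, while Ppargc1a runs among its own.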

How the data were processed

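Each array gave 1 deposited log2 value per transcript cluster. The submitters' processing notes name RMA, oligo and limma; versions, parameters, genome build and annotation release are not given in the sources used here. Per the labels, total RNA was labelled from 400 ng. The table held 36685 clusters with values from 0.0686 to 13.6. Arrays have no read depth, and their number limits the precision. Clusters were named through the platform annotation; 14824 had 1 symbol, and for 234 genes with several clusters the brightest was kept, which left 14557 genes.

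Groups were compared with limma 3.58.1 in R 4.3.3, in a group-means model over all 16 arrays with empirical Bayes moderation, two-sided tests, Benjamini-Hochberg adjustment over all genes within each of 5 comparisons and a threshold of 0.05. SEs are limma's. The fit was tested on simulated data. Within-day relations were tested by exact permutation in Python 3.11.15. The labels' replicate numbers did not pair the arrays: correlations of same-numbered deviations between groups ran from -0.0355 to 0.0916 over 24 pairs.

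The members, the lists and the comparisons were chosen with earlier results of these data known. The text names the members, a panel (12 of 17 measured), from each list up to 4 called genes with the largest difference at day 3 and up to 2 at day 28, and the 6 genes most like each member, passing over predicted symbols. Among Vegfa, Esrrg, Nrf1, Immt and Ank2 of the panel, none had a cluster of its own here, and they were not analysed here. Ncoa2 and Tnni3 were named after their values were seen. Promoter windows came from RefSeq tables of GRCr8. Alternatives were an intensity trend with robust priors, centring on tested genes or on fibre genes, cyclic loess, leaving out the dimmest 50% of genes, the mean of a gene's clusters, all clusters, only the compared groups, a replicate block and each array left out.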

Additional observations from a re-analysis of the deposited data

Results flagged for a closer look

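Among 58 genes named and their 4 groups each, 232 groups in all, 7 held an array whose gap to its nearest neighbour took up most of the group's range; chance alone gives about 1 in 20 groups, so this many is no pattern. Perm1 on day 28 replicate 4 stood at 9.99 with the others at 9.35 to 9.43. Ppargc1b was high on the same array, at 7.54 with the others at 7.13 to 7.19, and low on day 3 replicate 4, at 5.37 with the others at 5.66 to 5.71. On day 3 replicate 2, Mief1 stood at 6.30 with the others at 6.64 to 6.70, and Got2 at 7.57 with the others at 7.80 to 7.82. Smyd1 on day 0 replicate 1 was at 10.8 with the others at 10.6. Fhl5 on day 28 replicate 1 was at 6.27 with the others at 6.67 to 6.74.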

How the results depend on the processing

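The members' falls at days 3 and 7 kept their direction in every alternative run. Centring arrays on the median of tested genes moved the Perm1 difference to -3.74 at day 3 and -0.80 at day 28, and that of Ppargc1a to -2.83 and -1.75 at days 3 and 7. Centring on fibre genes moved Perm1 to -2.79 and Ppargc1a to -1.88 at day 3, and the day 7 against day 3 difference of Ppargc1a to 0.66. With centring on the median of tested genes, 1883 genes rose and 8438 fell at day 3, 1417 and 7025 at day 7, and 544 and 3043 at day 28, while 1374 rose from day 3 to 7 and 2014 from day 7 to 28. Of the calls at day 3, 18.2% were then higher, against 52.5% as deposited; at day 7 it was 16.8% against 53.2%, at day 28 15.2% against 69.2%, from day 3 to 7 56.9% against 39.5%, and from day 7 to 28 65.7% against 46.8%. The shift of the median gene was -0.46, -0.36 and -0.25 against day 0, and 0.10 and 0.11 for successive days. With that centring 3 pathway genes rose at day 3 and 3 at day 7, 88 fell at day 7 and 32 at day 28, and 50 rose from day 7 to 28. Centring on fibre genes shifted the median gene by 0.49, 0.17 and 0.03 against day 0, and by -0.32 and -0.13. With it 7282 genes rose and 1011 fell at day 3, 3196 and 1151 at day 7, and 876 and 245 at day 28. From day 3 to 7, 293 rose and 4504 fell, and from day 7 to 28, 597 and 1806. Over all clusters of the table, 5073 rose and 6620 fell at day 3, 3783 and 4529 at day 7, and 1859 rose from day 7 to 28. The pathway genes that rose at day 28 numbered 7 with an intensity trend, 5 under cyclic loess and 8 without the dimmest genes, where 5 fell from day 7 to 28. Leaving out arrays in turn, 235 to 498 genes fell at day 28, and 4 to 9 of the pathway; the within-day r ran from 0.45 to 0.719, and was 0.724 without day 7.

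With the replicate block, 61 pathway genes fell at day 3 and 6 at day 28, against 65 and 8 without it; the numbers did not pair the arrays, and counts of calls moved by less than 1.5 times. Signs turned with centring on fibre genes for the day 3 differences of Esrra (0.0256), Ppard (0.0726), Tfam (0.32), Vegfb (0.43), Hk2 (0.0575), Got2 (0.0436) and Mterf2 (0.0883), and with centring on tested genes for Gabpa at days 3 (-0.42) and 7 (-0.31). Of 52 named genes called at day 3, 37 stayed called in every alternative. Dim clusters can be compressed on this scale, which was not tested, so small differences of dim genes such as Mtx1 are among the least certain. Esrra, at 5.98 at day 0, lay above the medians of tested genes on those arrays (4.16 to 4.24). Its day 3 call was uncertain because several alternatives lost it.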

Other observations

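Genes whose deviations within days ran closest to those of Perm1 were listed after the split at day 7 was seen, and are given as values with no test. Slc16a3, the lactate exporter, came first (root mean square gap 0.196 log2 units), and Rps6ka2, a ribosomal S6 kinase (0.233), Mgst3, a microsomal glutathione transferase (0.254), and Got1, an aspartate aminotransferase of the cytosol (0.255), were among the 6 nearest. On day 7 replicates 1 to 4, Got1 stood at 9.68, 9.82, 10.65 and 10.47. Rps6ka2 was at 7.05, 7.19, 8.06 and 8.25, and Mgst3 at 6.44, 7.03, 7.91 and 7.91. The rest of the 6 nearest were dim clusters. Or2t45b (gap 0.221) stood at 1.06, 1.32, 2.90 and 2.36, and Slc45a3 (0.258) at 2.26, 2.49, 3.88 and 3.22. In all 6, bright or dim, replicates 1 and 2 were the low ones, as in Perm1.

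Some fuel genes of the pathway had courses of their own. Pdk4, the kinase that blocks pyruvate entry into mitochondria, was named after its values were seen; it was at -0.27 ± 0.27 at day 3 (limma adjusted p = 0.47) and -1.33 ± 0.27 at day 7 (limma adjusted p = 0.00106). Prkag3, a regulatory subunit of AMP-activated kinase in glycolytic muscle, was also picked out afterwards, with -0.57 ± 0.29 at day 3 (limma adjusted p = 0.127) and 1.04 ± 0.29 at day 7 (limma adjusted p = 0.0101); the latter did not pass with centring on the median of tested genes, at 0.68.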
